A study of Mus musculus with 16 samples.

Results

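The 9 genes Siglech, Bst2, Ly6c2, Ly6d, Ccr9, Pacsin1, Cd300c, Klk1 and Pld4 were followed across splenic dendritic cells (DCs) with and without Trim33, to ask whether they were kept in plasmacytoid DCs (pDCs) or gained in conventional DCs (cDCs) after the deletion. They were chosen by name as genes that encode surface or secretory proteins of pDCs, and all 9 were found among the 18232 genes listed in either of the deposited tables. RNA sequencing covered 16 libraries of spleen cells from C57BL/6 mice aged 6 to 8 weeks: 3 WT pDC, 3 cKO pDC, 2 WT cDC1, 2 cKO cDC1, 3 WT cDC2 and 3 cKO cDC2. WT mice were Trim33 fl/fl and cKO mice Trim33 fl/fl Itgax-Cre, so that both carried the floxed allele and Cre was driven by the Itgax (CD11c) promoter, which acts in CD11c-expressing cells in general and not in 1 DC subset. The pDCs were sorted as CD11c+ SiglecH+, the cDC1s as CD11c+ SiglecH- MHC II+ CD24+ CD172a- and the cDC2s as CD11c+ SiglecH- MHC II+ CD24- CD172a+, so the contrast of Siglech between pDCs and cDCs was set by the sort. The gates were the same in both genotypes, so a loss or gain of Siglech in cKO could be seen only within them.

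The pDC is the DC subset known for rapid type I interferon secretion after sensing viral nucleic acids in endosomes. Its surface and secretory equipment is used to recognise it: lectin-like and adaptor-coupled receptors restrain or tune its activation, chemokine receptors place it in tissues, and endolysosomal enzymes process nucleic acids. The cDC1s cross-present antigen, and the cDC2s present antigen to CD4+ T cells.

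Levels are given as TPM, a share of all transcripts that is scaled for transcript length and can be compared between genes. The libraries held an estimated 17.95 to 20.25 M reads each, worked out from the steps of the low FPKM values, and 3 reads on a 1000-base transcript were worth 0.286 to 0.378 TPM, a floor that covers counting error only. Fold changes are on the log2(TPM + 1) scale, on which low genes appear to change less than they do, and a gene was called where limma put its adjusted p no higher than 0.01 and its log2 fold change 0.5 or more from 0. By the study's account each library was a biological repeat pooled from several mice, more of them in cKO than in WT, so p-values measure the spread between pools, and pool size and genotype cannot be told apart. In bulk RNA, fewer cells of a type and less RNA per cell cannot be told apart.

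Trim33 itself was lower in every cKO library than in every WT library of its subset. In pDCs its level was 20.6, 23.83 and 22.33 TPM in WT and 12.61, 16.49 and 11.73 TPM in cKO, a log2 fold change of -0.68 that was not called (adjusted p = 0.0301). Of 13 other settings of the limma fit, 12 left Trim33 uncalled there, and the lowest adjusted p among the 13 was 0.0036. In cDC1s it fell from 15.47 and 18.18 TPM to 7.88 and 7.71 TPM (log2 fold change -1.02, adjusted p = 3.49e-04), and in cDC2s from 20.64, 18.19 and 17.21 TPM to 7.93, 7.13 and 8.07 TPM (-1.17, adjusted p = 1.26e-04). The log2 fold change of Trim33 was nearest to 0 in pDCs. The cDC1 markers Xcr1 and Clec9a averaged 305 and 541 TPM in WT cDC1s and 3.77 and 9.97 TPM in WT cDC2s, and the cDC2 marker Sirpa 485 TPM in WT cDC2s and 5.59 TPM in WT cDC1s. Sirpa encodes CD172a, on which the cDC subsets were sorted, so its contrast was set by the sort.

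In RefSeq on GRCm38.p6 the genes, by their gene ID, lay as follows. Siglech (ID 233274) spanned chr7:55768154-55779448. Bst2 (ID 69550) spanned chr8:71534255-71537472. Ly6c2 (ID 100041546) spanned chr15:75108161-75112066. Ly6d (ID 17068) spanned chr15:74762056-74763567. Ccr9 (ID 12769) spanned chr9:123767211-123783457. Pacsin1 (ID 23969) spanned chr17:27655591-27711118. Cd300c (ID 387565) spanned chr11:114956105-114960507. Klk1 (ID 16612) spanned chr7:44225360-44229622. Pld4 (ID 104759) spanned chr12:112760446-112768986.

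The promoters of 3 genes are printed because their genes were called in cKO cDC1s and their windows lie wholly outside the annotated gene; each is the 250 bases before the start, from RefSeq on GRCm38.p6, and capitals mark the motifs CAGGTG, an E-box bound by E proteins, and GAAANNGAAA, found in interferon-stimulated response elements. Bst2 lies at chr8:71537473-71537722 on the minus strand, Cd300c at chr11:114960508-114960757 on the minus strand and Ccr9 at chr9:123766961-123767210 on the plus strand.
Bst2: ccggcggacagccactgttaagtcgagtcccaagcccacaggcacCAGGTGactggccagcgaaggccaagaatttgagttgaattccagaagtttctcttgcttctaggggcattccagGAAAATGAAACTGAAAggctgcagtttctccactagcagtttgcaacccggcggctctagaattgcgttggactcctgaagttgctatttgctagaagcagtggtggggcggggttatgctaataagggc
Cd300c: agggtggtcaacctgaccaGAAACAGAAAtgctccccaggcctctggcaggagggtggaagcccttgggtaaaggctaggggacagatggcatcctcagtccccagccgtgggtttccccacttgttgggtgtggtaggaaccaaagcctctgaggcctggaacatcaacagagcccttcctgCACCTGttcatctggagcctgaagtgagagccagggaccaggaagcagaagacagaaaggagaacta
Ccr9: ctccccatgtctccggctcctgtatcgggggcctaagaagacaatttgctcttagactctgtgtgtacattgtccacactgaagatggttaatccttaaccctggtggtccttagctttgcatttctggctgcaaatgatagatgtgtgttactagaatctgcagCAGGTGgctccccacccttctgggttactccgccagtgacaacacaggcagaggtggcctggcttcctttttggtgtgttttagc
Both strands were searched, and overlapping matches were kept. Promoter windows were found for 8 of the 9 genes. Of all 27025 promoter windows of this length, 17.1% held CAGGTG, as did those of Bst2, Ccr9, Cd300c, Klk1 and Siglech, and 3.04% held GAAANNGAAA, as did those of Bst2 and Cd300c. Another motif, GAGGAAGT, was held by 2.44% of windows and by that of Ly6c2. The motifs were chosen after the promoters had been read, so these matches are descriptions only.

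All 9 genes stood high in pDCs, with WT means from 310 TPM for Pacsin1 to 5013 TPM for Ly6c2. The pDC and cDC tables were scaled separately, so their levels are set side by side with no test; the 16617 genes in both tables held 99.98% to 99.99% of the TPM of every library. Siglech, Ly6d and Klk1 had the lowest cDC levels relative to pDCs, and in each cDC group Siglech and Ly6d were below 0.2% of the WT pDC mean. Pld4, an endolysosomal exonuclease that degrades single-stranded nucleic acids, was the exception, with WT cDC1s at 22.4% and WT cDC2s at 31.0% of the WT pDC mean.

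**Figure D1:**
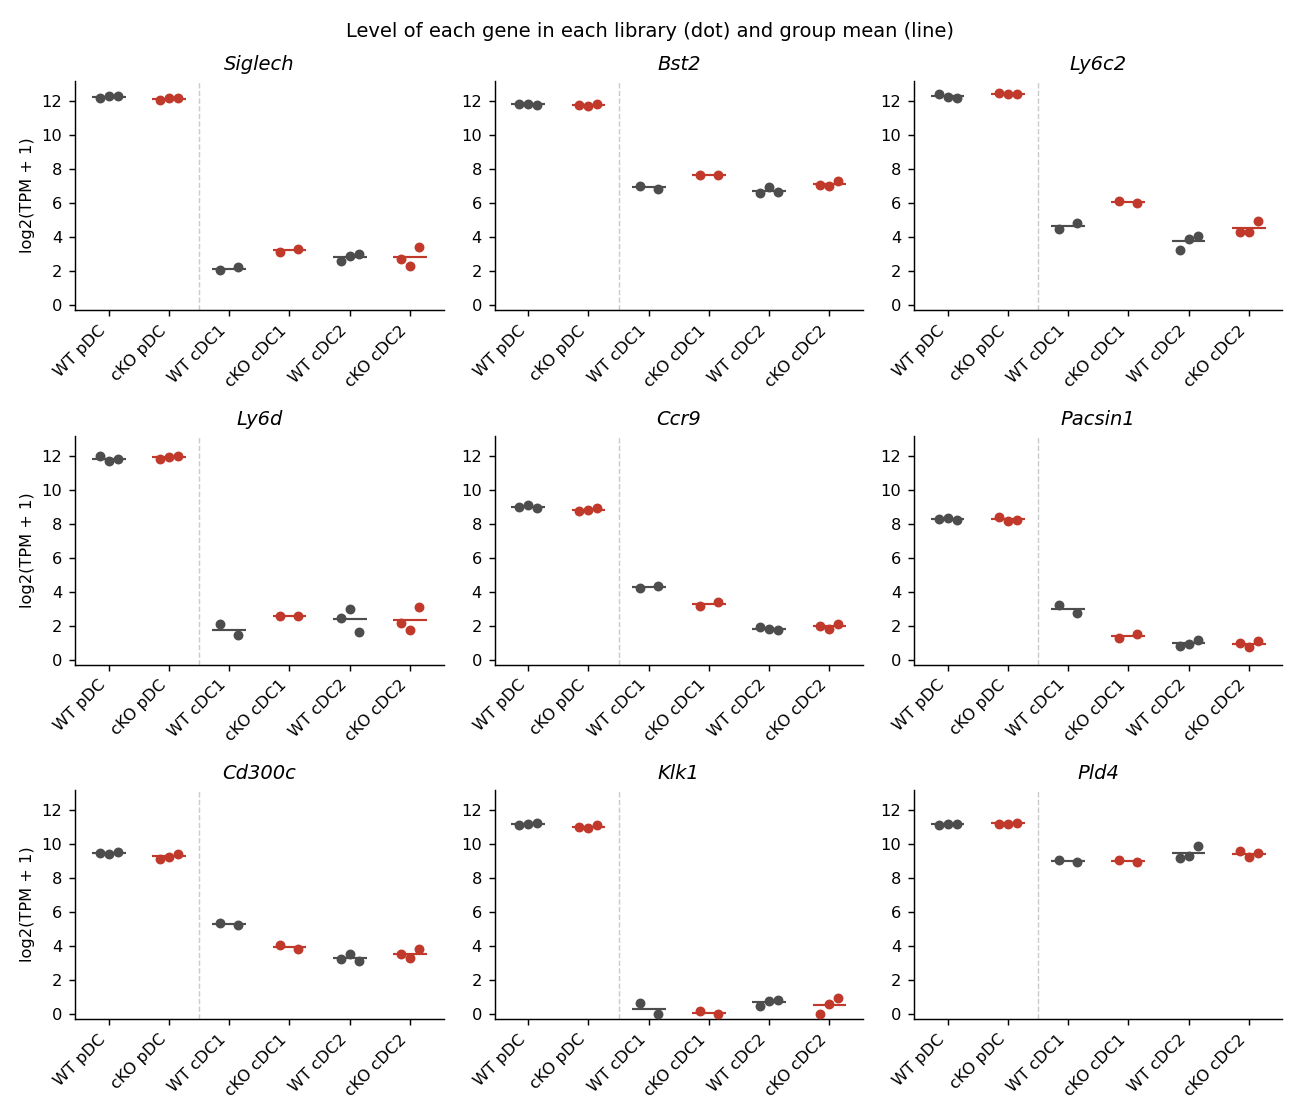
Level of each of the 9 genes as log2(TPM + 1) in the 16 libraries (dots), by subset and genotype, with the group mean as a line; WT is grey and cKO red. The pDC libraries sit at the top of every panel, and in cDC1s the red dots sit above the grey for Bst2 and Ly6c2 and below for Ccr9, Pacsin1 and Cd300c.

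In pDCs, 0 of the 9 genes were called between cKO and WT by limma, against 1.05% of all 11299 genes tested. That background moved with single libraries: the 119 genes called fell to 12 without WT pDC library 3 and to between 40 and 97 without any other. Their log2 fold changes ran from -0.20 for Cd300c to 0.17 for Ly6c2, with a median of -0.05 that equalled the median of all genes to 2 decimals. Every 95% interval lay between -0.39 and 0.34, inside the fold limit of 0.5. At an unadjusted p under 0.05 there were 4 of the 9, beside 20.8% of all genes tested, and the adjusted p-values ran from 0.182 to 0.943. Same-numbered pDC libraries deviated together, and with the replicate number as a block 0 of the 9 were again called, while the genes called in all went from 119 to 335.

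Siglech, a gene of the Siglec family whose protein signals through the adaptor DAP12, was at 4682.60, 5130.13 and 5130.73 TPM in WT pDCs and at 4366.58, 4651.67 and 4674.27 TPM in cKO pDCs (log2 fold change -0.13, SE 0.07, adjusted p = 0.328). Every cKO library was below every WT library, by a small margin. Cd300c, an activating receptor of the CD300 family, was at 711.41, 694.74 and 756.95 TPM in WT and 571.63, 614.09 and 695.60 TPM in cKO (log2 fold change -0.20, SE 0.08, adjusted p = 0.195), and the groups overlapped. Ccr9, the receptor for the gut and thymus chemokine CCL25, was at 508.67, 544.90 and 488.90 TPM in WT and 428.62, 455.13 and 481.21 TPM in cKO (log2 fold change -0.18, SE 0.07, adjusted p = 0.182), with no overlap.

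Ly6c2, a GPI-anchored surface protein also carried by inflammatory monocytes, was at 5456.35, 4811.05 and 4771.32 TPM in WT pDCs and 5701.93, 5628.12 and 5574.25 TPM in cKO pDCs (log2 fold change 0.17, SE 0.07, adjusted p = 0.225). Klk1, a secreted tissue kallikrein that releases kinins, was at 2269.36, 2305.32 and 2458.52 TPM in WT and 2114.41, 1959.30 and 2206.75 TPM in cKO (log2 fold change -0.16, SE 0.07, adjusted p = 0.214). The groups did not overlap for either gene. Bst2, or tetherin, which holds budding virions on the cell surface, ranged from 3589.31 to 3690.75 TPM in WT and from 3377.58 to 3639.78 TPM in cKO. Ly6d, a GPI-anchored protein also used to mark early lymphoid cells, ranged from 3357.04 to 4111.76 and from 3668.70 to 4014.12 TPM. Pacsin1, a membrane-bending protein of endocytosis, ranged from 299.69 to 321.12 TPM in WT and from 290.78 to 332.48 TPM in cKO, and Pld4 from 2280.34 to 2351.52 and from 2370.13 to 2482.52 TPM. In all, 5 of the 9 genes had cKO libraries wholly on 1 side of WT, 2 higher and 3 lower, against 27.5% of all genes tested.

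In cDC1s, 5 of the 8 genes tested were called, and they went both ways: Ly6c2 and Bst2 rose and Pacsin1, Cd300c and Ccr9 fell. Of all 11411 genes tested, 15.8% were called higher and 6.56% lower; the 2555 calls in all fell to 800 without cKO cDC1 library 1, 1111 without cKO cDC1 library 2 and 1118 without WT cDC1 library 1. The median log2 fold change of all genes in cDC1s was 0.17, and with median-of-ratios scaling it was 0.02 and the calls were 1067 higher and 1067 lower in place of 1806 and 749. Under that scaling Bst2 was no longer called and the other 4 were. The 8 genes had a median log2 fold change of 0.36. Klk1 was below the filter of a mean of 1 TPM and was not tested.

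**Figure D2:**
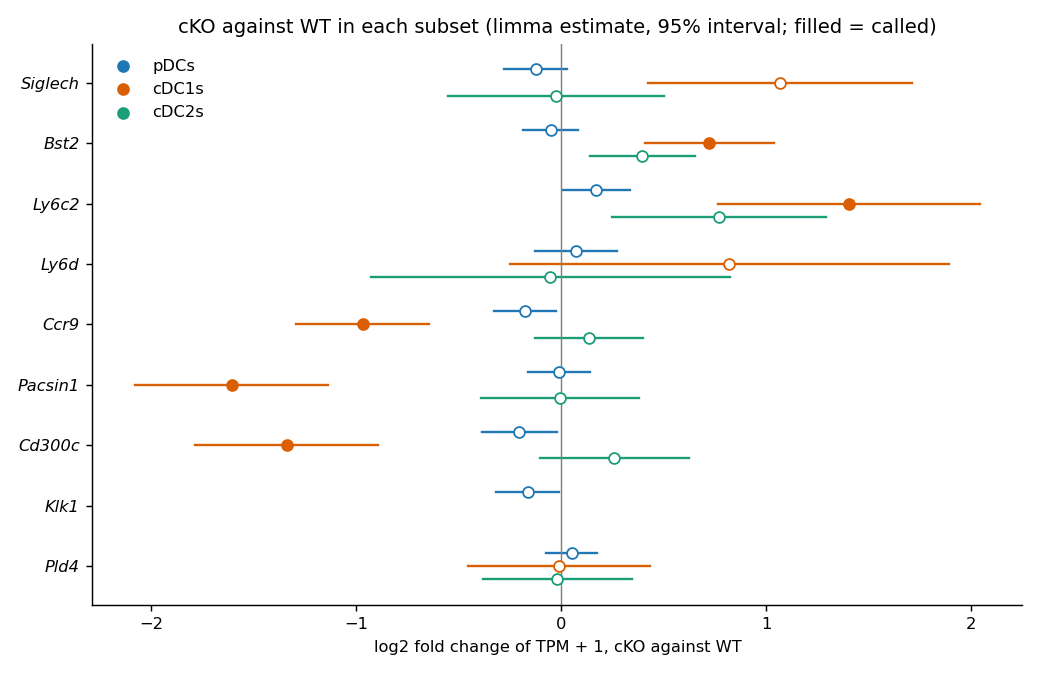
Log2 fold change of TPM + 1 of cKO against WT for each gene in pDCs, cDC1s and cDC2s, from limma, with the 95% interval as a bar; filled points were called and open points were not. Pacsin1, Cd300c and Ccr9 lie left of 0 and Bst2 and Ly6c2 right of 0 in cDC1s, and pDC points lie near 0.

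Ly6c2 was at 21.07 and 27.74 TPM in WT cDC1s and 69.02 and 62.40 TPM in cKO cDC1s (log2 fold change 1.40, SE 0.29, adjusted p = 0.00386), or 1.23 above the median of all genes. Both cKO values were above both WT values. Bst2 was at 129.16 and 113.05 TPM in WT and 199.36 and 200.30 TPM in cKO (log2 fold change 0.72, SE 0.14, adjusted p = 0.00309), or 0.55 above that median. After the rise, Ly6c2 stood at 1.31% and Bst2 at 5.47% of the WT pDC mean. Neither was called without cKO cDC1 library 1 or 2 or without WT cDC1 library 1, and Bst2 was also not called without WT cDC1 library 2. Ly6c2 was not called without the filter on low genes.

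Pacsin1 was at 8.35 and 5.64 TPM in WT cDC1s and 1.37 and 1.82 TPM in cKO cDC1s (log2 fold change -1.61, SE 0.21, adjusted p = 4.12e-04). Cd300c was at 39.43 and 36.83 TPM in WT and 16.09 and 12.98 TPM in cKO (log2 fold change -1.34, SE 0.20, adjusted p = 7.63e-04). Ccr9 was at 17.64 and 18.77 TPM in WT and 8.07 and 9.60 TPM in cKO (log2 fold change -0.97, SE 0.15, adjusted p = 7.87e-04). WT and cKO values did not overlap for any of the 3, and the calls of Pacsin1 and Cd300c held without each library in turn, while Ccr9 was not called without cKO cDC1 library 1.

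Siglech was at 3.21 and 3.71 TPM in WT cDC1s and 7.91 and 8.76 TPM in cKO cDC1s (log2 fold change 1.07, SE 0.29, adjusted p = 0.0152), which was not called. Ly6d was at 3.20 and 1.69 TPM in WT and 4.88 and 4.98 TPM in cKO (log2 fold change 0.82, SE 0.48, adjusted p = 0.203). Both stayed at under 0.2% of the WT pDC mean. Pld4 was at 539.98 and 500.44 TPM in WT and 529.22 and 502.93 TPM in cKO, with an interval of -0.46 to 0.43 for its log2 fold change. Klk1 was at 0.56 and 0 TPM in WT and 0.12 and 0 TPM in cKO, near or under the worth of 3 reads. In cDC1s 7 of the 8 genes tested had no overlap between genotypes, against 76.2% of all genes tested.

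In cDC2s, 0 of the 8 genes tested were called by limma, against 7.15% of all genes tested, and 2 had an unadjusted p under 0.05, beside 34.1% of all genes. These were Bst2, at 94.47, 121.56 and 102.02 TPM in WT and 132.83, 128.26 and 157.32 TPM in cKO (log2 fold change 0.39, SE 0.12, adjusted p = 0.0381), and Ly6c2, at 8.61, 13.89 and 15.99 TPM in WT and 18.49, 18.83 and 30.03 TPM in cKO (log2 fold change 0.77, SE 0.23, adjusted p = 0.0448). They were also the only 2 with every cKO library above every WT library, against 35.5% of all genes on 1 side. Siglech was at 5.16, 6.32 and 7.11 TPM in WT and 5.60, 3.97 and 9.60 TPM in cKO, with an interval of -0.55 to 0.50. Ly6d ranged from 2.08 to 6.98 TPM in WT and from 2.28 to 7.51 TPM in cKO, and Klk1 was at or below 0.91 TPM in every library. Ccr9 ranged from 2.31 to 2.84 TPM in WT and from 2.54 to 3.20 TPM in cKO, Pacsin1 from 0.73 to 1.19 and from 0.70 to 1.11 TPM, Cd300c from 7.77 to 10.72 and from 8.70 to 13.43 TPM, and Pld4 from 593.65 to 934.50 and from 602.37 to 790.80 TPM. The median log2 fold change of the 8 genes was 0.06, beside -0.03 for all genes. Over all genes, the 816 calls in cDC2s ranged from 316, without cKO cDC2 library 3, to 907 when 1 library was left out. Without a fold limit at an adjusted p of at most 0.05, Bst2 and Ly6c2 were called.

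The cKO effects in cDC1s and cDC2s differed for the 3 genes that fell in cDC1s. The difference of the log2 fold changes, cDC1 minus cDC2, was -1.60 for Pacsin1 (SE 0.27, adjusted p = 0.0074), -1.60 for Cd300c (SE 0.26, adjusted p = 0.00574) and -1.10 for Ccr9 (SE 0.19, adjusted p = 0.00727), against 1.35% of all genes called lower. None of these 3 was called without WT cDC1 library 1, either cKO cDC1 library, or cKO cDC2 library 1 or 3, and 1 or 2 were called without any other. With no filter on low genes 0 were called, and at a pseudocount of 0.1 only Cd300c. For Bst2 and Ly6c2 the difference was not called (0.33, adjusted p = 0.251, and 0.64, adjusted p = 0.271).

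The same 3 genes were the members called higher in WT cDC1s than in WT cDC2s, a comparison that shares the WT cDC1 libraries with those above. Ccr9 was higher by 2.45 on the log2 scale (adjusted p = 2.24e-07), Pacsin1 by 2.03 (1.31e-05) and Cd300c by 1.99 (9.95e-06), against 10.9% of all genes called higher. Every WT cDC1 library was above every WT cDC2 library for Ly6c2 too, by 0.91 on the log2 scale, which was not called (adjusted p = 0.0159). The Ccr9 means were 18.2 TPM in WT cDC1s, 8.84 TPM in cKO cDC1s, 2.53 TPM in WT cDC2s and 2.88 TPM in cKO cDC2s. Pacsin1 in cKO cDC1s, at 1.37 and 1.82 TPM, was above its range in both cDC2 groups. Cd300c in cKO cDC1s, at 12.98 and 16.09 TPM, overlapped cKO cDC2s.

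**Figure D3:**
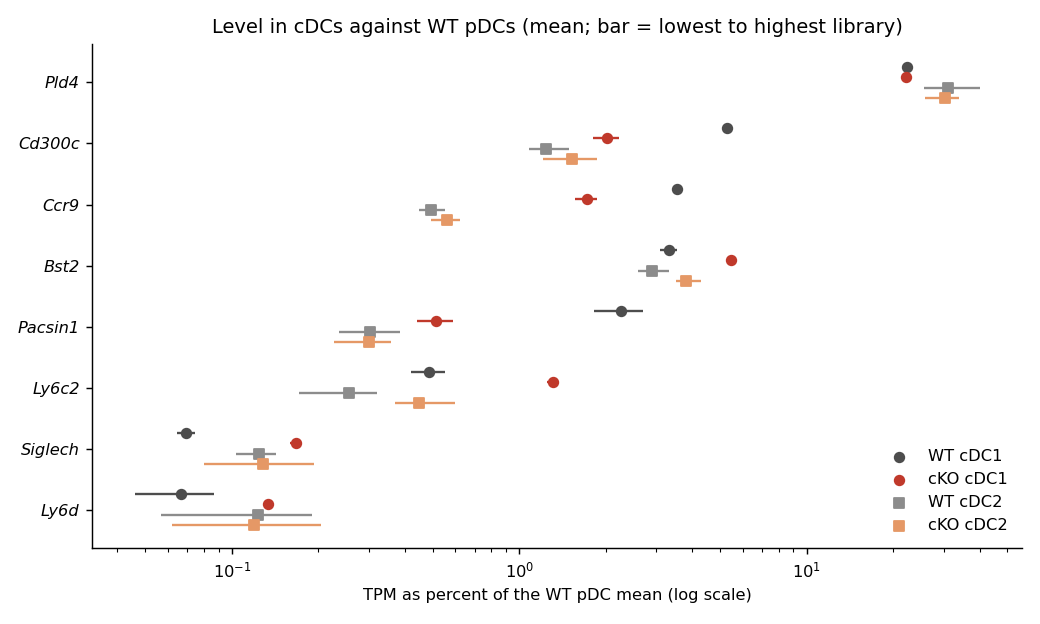
Mean TPM of 8 genes in each cDC group as a percent of the WT pDC mean on a log axis, with bars from the lowest to the highest library; circles are cDC1s and squares cDC2s. Pld4 lies above 20% in every group, Siglech and Ly6d have means below 0.2%, and Klk1, near 0 TPM, is left out.

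Other genes of pDCs were read from lists, and the first number in each bracket is the log2 fold change of cKO against WT unless named otherwise. Of 11 genes listed as pDC transcription factors, limma called 0 in pDCs and in cDC2s, and 1 in cDC1s. The shares of all genes called were 1.05% in pDCs, 15.8% higher and 6.56% lower in cDC1s, and 7.15% in cDC2s. Tcf4, the E protein that directs pDC identity, rose in cDC1s from a mean of 8.48 TPM to 17.2 TPM (0.98, adjusted p = 0.00389). The list was mixed and held Id2, which the study names as required for cDC1s. Id2 averaged 15.8 TPM in WT pDCs, 1595 TPM in WT cDC1s and 713 TPM in WT cDC2s. Etv6 and Cbfa2t3 also averaged higher in both WT cDC groups than in WT pDCs. Of 11 nucleic acid sensing genes, 0 were called in pDCs and cDC1s and 1 in cDC2s, where Tlr7, the endosomal RNA sensor, fell from 81.8 to 41.9 TPM (-0.95, adjusted p = 8.00e-04). By limma, the listed transcription factors had 2 of 11 at an unadjusted p under 0.05 in pDCs, 7 of 11 in cDC1s and 4 of 11 in cDC2s. The nucleic acid sensing genes had 3 of 11 in pDCs, 4 of 11 in cDC1s and 4 of 11 in cDC2s. The shares of all genes at that level were 20.8% in pDCs, 48.6% in cDC1s and 34.1% in cDC2s.

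A list of other genes used to recognise pDCs held mostly surface and secretory genes, but also genes that are neither, such as Cox6a2, Upb1, Dntt, Rag1 and Blnk. Of this list, 1 rose and 1 fell of 21 tested in pDCs, 5 rose and 1 fell of 16 in cDC1s, and 2 rose and 2 fell of 16 in cDC2s. The shares of all genes called were 1.05% in pDCs, 15.8% higher and 6.56% lower in cDC1s, and 7.15% in cDC2s. Cox6a2, a cytochrome c oxidase subunit, rose in all 3 subsets, in pDCs from 1189 to 3283 TPM (1.46, adjusted p = 0.00128), in cDC1s from 0.48 to 15.2 TPM (3.53, adjusted p = 6.28e-05) and in cDC2s from 2.84 to 37.7 TPM (3.35, adjusted p = 4.81e-05). Cd209d, a C-type lectin, fell in pDCs (-0.55, adjusted p = 0.00367). Upb1, Lair1 and Cd7 rose in cDC1s too, while Fcrla fell there (-1.59, adjusted p = 2.25e-04) and rose in cDC2s (2.13, adjusted p = 3.12e-05). Lag3 and Cxcr3 fell in cDC2s.

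**Figure D4:**
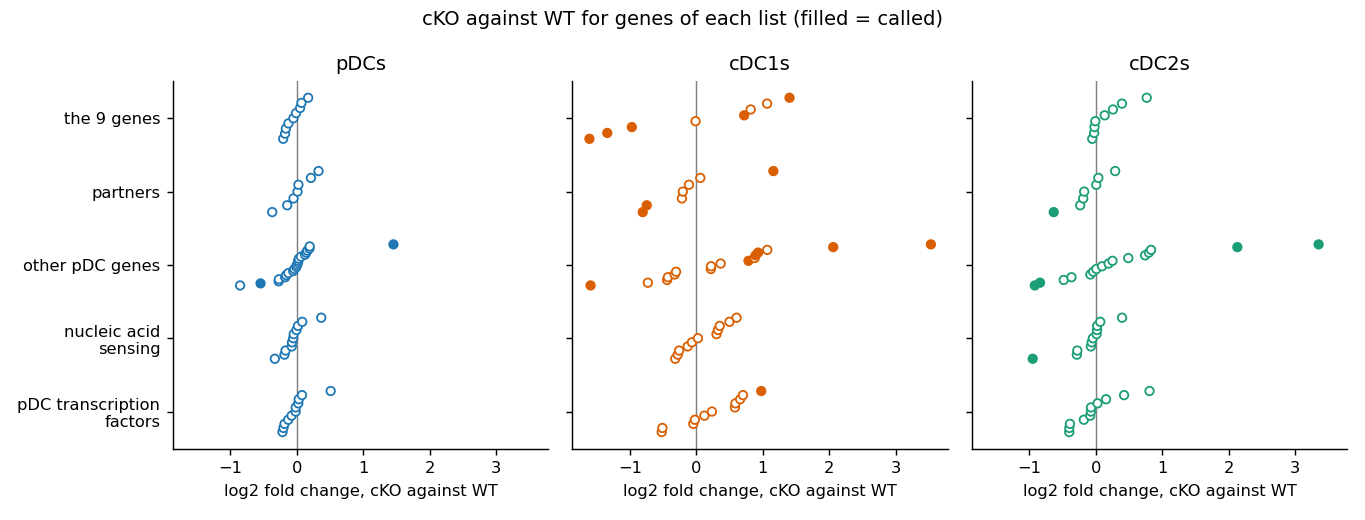
Log2 fold change of cKO against WT in pDCs, cDC1s and cDC2s for the 9 genes and for genes of 4 lists, 1 point per gene tested; filled points were called. Cox6a2, at the far right of the row of other pDC genes, was called in all 3 subsets, and 1 other gene of that row was called in pDCs.

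For the families below, the shares of all genes called were 1.05% in pDCs, 15.8% higher and 6.56% lower in cDC1s, and 7.15% in cDC2s. Of 7 partners of the 9 genes, 0 were called in pDCs. In cDC1s Fcer1g, the adaptor of several activating receptors, rose (1.16, adjusted p = 5.03e-04), and Hcst and Wasl fell. In cDC2s Wasl fell (-0.63, adjusted p = 0.00357). Of the Siglec family, limma called 1 of 4 tested in pDCs and 2 of 5 in cDC1s. Cd22 rose in pDCs from 3.02 to 18.3 TPM (SE 0.24, adjusted p = 0.00412) and in cDC1s (1.76, adjusted p = 3.37e-04). Of 7 Cd300 genes tested in cDC1s, Cd300lg, Cd300lf and Cd300a rose and Cd300e and Cd300c2 fell, Cd300e by most (-2.68, adjusted p = 1.44e-05). In cDC2s, Cd300lg and Cd300lb of the same 7 rose, and Cd300lf fell. Ccr6 fell in pDCs, and of 6 CC chemokine receptors tested in each cDC subset Ccr2 rose and Ccr7 fell. Of the Ly6 family, Ly6i rose in cDC2s, 1 of 3 tested there. Few genes of the last families passed the filter. Of the Pacsin family 1 was tested in each subset, and of the tissue kallikreins 5 in pDCs and 1 in each cDC subset. Of the phospholipase D family 3 were tested in pDCs and 2 in each cDC subset. In these last families 0 genes were called in any subset.

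Markers of other cells moved with some of these results. Beside the counts below, limma called 1.05% of all genes in pDCs and 7.15% in cDC2s. In cDC1s it called 15.8% of all genes higher and 6.56% lower. Of 14 monocyte and macrophage markers, 12 were tested in cDCs and Csf1r and Ccr2 rose in both cDC subsets, with Fcgr1 and Lyz2 in cDC2s. In cDC1s the list had a median log2 fold change of -0.34, and Lyz2 (423 TPM in WT and 284 TPM in cKO on average), Cd14 (10.4 and 2.32 TPM), C1qa (11.8 and 5.44 TPM), C1qb and C1qc were lower on average in cKO but not called. In pDCs 0 of 11 were called, with a median of 0.44. Their summed level was 712 to 954 TPM in WT cDC1s and 811 to 835 TPM in cKO cDC1s, and 1875 to 2306 TPM in WT cDC2s and 3214 to 4138 TPM in cKO cDC2s. Vcan, a monocyte marker, was at or below 0.03 TPM in every cDC1 library. Of the NK cell markers Klrk1 rose in both, with 6 of 7 markers under 1 TPM in every cKO cDC1 library. In pDCs the summed B cell markers were 63.2 to 93.7 TPM in WT and 69.2 to 148 TPM in cKO, and the neutrophil markers 9.12 to 29.8 and 30.3 to 139 TPM, the highest being cKO pDC library 1 in both. In cDC1s the B cell sums were 24.67 to 33.82 TPM in WT and 18.31 to 18.35 TPM in cKO. The neutrophil sums there were 1.88 to 17.57 TPM in WT and 23.33 to 43.35 TPM in cKO. In cDC2s the B cell sums were 45.93 to 63.07 TPM in WT and 48.84 to 50.41 TPM in cKO. The neutrophil sums there were 8.63 to 35.45 TPM in WT and 20.6 to 84.41 TPM in cKO. Of 3 B cell markers tested in cDCs, 1 was called lower in each subset, and of 5 neutrophil markers 0 were called. Of 11 cDC1 markers, Itgae, Cadm1 and Clec9a fell in cDC1s and 0 rose, with sums of 4769 to 4848 TPM in WT and 4476 to 4490 TPM in cKO. Of 11 cDC2 markers tested in cDC1s, Clec10a and Itgam rose and Cd4, Esam and Ltb fell, with sums of 97.1 to 106 TPM in WT and 85.9 to 97.4 TPM in cKO. In cDC2s the sums of the cDC2 markers were 2476 to 2688 TPM in WT and 2010 to 2217 TPM in cKO. The 11 markers went both ways there, 3 called higher and 4 lower, beside 7.15% of all genes called. In pDCs the plasma cell marker Mzb1 rose, with sums of that list of 118 to 146 TPM in WT and 255 to 294 TPM in cKO. The T cell marker Thy1 rose there too, with sums of 29.2 to 40.1 TPM in WT and 59.7 to 87.6 TPM in cKO, as did the cDC2 marker Itgam. Erythroid markers reached 10743 TPM in 1 WT cDC2 library. The part of these cells in the results was not tested.

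By the smallest root-mean-square difference of centred log2(TPM + 1) over the 10 cDC libraries, among 11411 genes, Fuca1 (0.144) and Snx24 were most like Ccr9, Cd81 (0.153) and Mgll most like Pacsin1, and Smyd1 (0.203) and Qpct most like Cd300c. Chchd4 (0.0839) and Thoc6 were most like Bst2, 2610318N02Rik (0.242) and Notch1 most like Ly6c2, Dtd1 (0.232) and Proz most like Siglech, AY074887 (0.345) and Zfp772 most like Ly6d, and Iffo1 (0.0703) and Ehmt2 most like Pld4. These are descriptions over libraries that share groups. Of the 50-base windows of Ly6c2 transcripts, 31.2% were shared with another gene, mostly Ly6c1, and of those of Klk1 27.2%, most often Klk1b5, so that these levels are uncertain where reads could be split. Ly6c1 itself averaged 107 TPM in WT pDCs. Ccr9 shared 3.90%, Siglech 0.356% and the other 5 genes 0%. In RefSeq, Siglech, Ccr9 and Klk1 overlapped Gm39015, Gm17021 and Gm10109, and whether reads were counted by strand is not given in the sources used here.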

How the data were processed

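Splenic pDCs, cDC1s and cDC2s of WT and cKO mice were sequenced on the BGISEQ-500 as single-end reads of 50 bases. The authors filtered reads with SOAPnuke, mapped them with Bowtie2 2.2.5 and estimated expression with RSEM 1.2.12, and the submitters' processing notes also name HISAT2 2.0.4 and mm10; the transcript reference is not given in the sources used here. The deposited values are TPM and FPKM per gene ID, in 1 table for the 6 pDC libraries and 1 for the 10 cDC libraries. All 32 value columns were mapped to samples by title. RefSeq named 17079 of 17128 pDC and 17667 of 17721 cDC gene IDs.

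Since counts were not used here, limma 3.58.1 (R 4.3.3) was fitted to log2(TPM + 1) of genes averaging 1 TPM or more, with a mean-variance trend and Benjamini-Hochberg adjustment over all genes tested; the study used a count model for DCs with the same thresholds. The pDC fit had 6 libraries and the cDC fit 10 as 4 group means with a shared spread. The scripts were tested on simulated data. Depth was estimated from the steps of low FPKM values of genes with 1 transcript. Same-numbered libraries shared no label of a mouse or day; the correlations of their deviations were 0.310, 0.392 and 0.206 in pDCs, -0.233 in cDC1s and -0.249, 0.253 and -0.165 in cDC2s, so the numbers were taken to pair the pDC libraries only. The pDC values given are from the fit without that pairing, except where the replicate block is named. Named were the 9 genes, Trim33, genes of each list that were called (those of largest change; 1 called gene is not reported here), and for each gene the 2 most alike in cDCs. The 9 genes and the lists were chosen with earlier results of these data known. Alternatives were another pseudocount, no filter, FPKM, median-of-ratios and quantile scaling, a replicate block, no trend, a looser threshold and leaving out each library. Summaries used pandas 2.3.3 and numpy 2.4.6 in Python 3.11.15, and figures matplotlib 3.10.9.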

Additional observations from a re-analysis of the deposited data

Results flagged for a closer look

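The log2 fold change of cKO against WT differed between cDC1s and cDC2s, by a test of the difference itself in limma, for Ccr9 (-1.10), Pacsin1 (-1.60) and Cd300c (-1.60), each lower in cDC1s. Siglech lay on opposite sides of WT in pDCs (-0.13, every cKO library lower) and in cDC1s (1.07, every cKO library higher). Neither Siglech change was called, and the difference was not tested, since the tables were scaled separately. In both genotypes pDCs were gated as SiglecH+ and cDCs as SiglecH-, so these Siglech levels were bounded by the sort.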

How the results depend on the processing

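Of 209 values recomputed for members that had been called, 163 kept the call, 46 lost it and 0 changed sign. Of 525 for members that had not been called, 15 gained a call and 36 changed sign. In pDCs 0 members were called under every alternative run. The count in cDC1s stayed between 2 and 6 when 1 library was left out, and in the other alternatives between 4 and 6. In cDC2s it was 0 without any 1 library, and 2, Bst2 and Ly6c2, with the threshold relaxed to an adjusted p of 0.05 and no fold criterion. The count for the difference between cDC1s and cDC2s was the least stable: 0 without the filter on low genes, 1 at a pseudocount of 0.1, 0 with the replicate block and 0 to 2 when 1 library was left out. The WT cDC1 against WT cDC2 count stayed between 3 and 4. The replicate block left the members' count in pDCs at 0 and in cDC2s at 0, and gave 6 in cDC1s with Siglech. Crossing the cDC1 numbers, an alternative chosen after seeing the data, gave 6 calls in cDC1s, 1 in cDC2s and 0 for the difference. For these log2 fold changes of members not called, the sign changed, and the cause was not tested. Bst2 in pDCs had 0.0089 with quantile normalization. Pacsin1 in pDCs had 0.019 with FPKM values, 0.028 with median-of-ratios scaling, -0.068 to 0.029 without 1 library. Pld4 in pDCs had -0.027 with quantile normalization. Pld4 in cDC1s had -0.066 to 0.044 without 1 library. Siglech in cDC2s had 0.014 with FPKM values, 0.020 with median-of-ratios scaling, 0.049 with quantile normalization, -0.32 to 0.23 without 1 library. Ly6d in cDC2s had 0.032 with quantile normalization, -0.44 to 0.26 without 1 library. Pacsin1 in cDC2s had 0.010 with FPKM values, 0.019 with median-of-ratios scaling, 0.081 with quantile normalization, -0.084 to 0.086 without 1 library. Pld4 in cDC2s had 0.023 with FPKM values, 0.033 with median-of-ratios scaling, 0.042 with quantile normalization, -0.14 to 0.18 without 1 library. Pld4 for the difference between cDC1s and cDC2s had -0.10 with FPKM values, -0.22 with median-of-ratios scaling, -0.075 with quantile normalization, -0.19 to 0.13 without 1 library. Depth limits Klk1 in cDCs, and 2 libraries a genotype limit cDC1s.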
